A study of Mus musculus with 2 samples.

Results

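Activins, the follistatins that bind them and the receptors through which they signal were followed in mesenchymal stem cell lines with and without Dicer. The 9 genes were chosen by symbol, and all 9 are among the 23227 symbols of the authors' deposited table: the activin subunits Inhba and Inhbb, the follistatin family genes Fst, Fstl3 and Fstl1, and the activin receptors Acvr1, Acvr1b, Acvr2a and Acvr2b. They were picked with the ratio of the Dicer-deficient line (KO) over the line with intact Dicer (WT) already known, so every such ratio of these 9 genes is a description without a test. Both lines are immortalised monoclonal lines of adult mouse mesenchymal stem cells, called fibroblasts elsewhere in the labels. WT carries the floxed alleles Dicer f/f and KO is Dicer -/-, and both were grown in Alpha-MEM with serum and lysed before confluence. The labels give no treatment, time or animal age, and they give 1 sample for each genotype. Each line is 1 clone, so a difference between the genotypes and a difference between these clones cannot be told apart.

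Activins are dimers of the beta subunits that Inhba and Inhbb encode, and belong to the TGF-beta superfamily. They bind a type II receptor (Acvr2a or Acvr2b), which recruits and phosphorylates a type I receptor, chiefly Acvr1b, and the type I receptor phosphorylates SMAD2 and SMAD3. Follistatin (Fst) and the related Fstl3 wrap around activin outside the cell and block receptor binding, whereas Fstl1 shares the follistatin domain but is a more distant secreted glycoprotein. In mesenchymal cells this pathway is known for regulating proliferation, matrix production and differentiation into bone or fat. Dicer cuts microRNA precursors into mature microRNAs, which pair with sites in messenger RNAs through a short seed at their 5′ end.

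The genotype means of the authors' deposited table could be split into the whole reads of 2 libraries per genotype. These 4 recovered libraries held between 14135422 and 15718369 reads in genes. In each genotype the one with more reads is named deeper and the other shallower, and since nothing says that they came from separate cultures, the spread between them may be technical. The targeted gene Dicer1 had 804 and 943 normalised reads in the WT libraries against 573 and 557 in the KO libraries (deeper first), a ratio of 0.647. A value per gene does not show which part of Dicer1 the reads came from. Of 10 mesenchymal markers, 9 were detected and Thy1 was at 0 reads in both genotypes. Their summed level ranged from 158841 to 190250 normalised reads in WT and from 89208 to 108318 in KO, a sum made up mostly of Col1a1, Col1a2 and Vim. By size, the collagen genes Col1a1 and Col1a2 were at least 2-fold lower in KO and the other 7 were neither, among them Pdgfrb and Ly6a with ratios of 1.41. Haematopoietic markers summed to between 14.6 and 25.1 normalised reads in WT and between 2.76 and 2.99 in KO, with Cd3e at 0 throughout. Nearly all of that sum in WT was Cd34 (23.1 and 13.5, against 1.84 and 0.995 in KO), while Ptprc was at most 1.12 in WT and 1.99 in KO. Endothelial markers summed to at most 18.9 and epithelial ones to at most 70.6 in any library, with Epcam at 0. Krt8 was the highest epithelial marker in each library, at 7.71 and 44.8 in WT and 28.5 and 39.8 in KO. Krt18 was at most 21.3. The part of these marker levels in the values of the 9 genes was not tested. In bulk RNA, fewer cells that make a message and less of it per cell cannot be told apart.

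The microRNA sites that the 9 messages carry are shown first, because mature microRNAs are what Dicer makes. A site was any match to the 7 bases complementary to seed bases 2 to 8, searched on the message strand, in the longest 3′ UTR annotated per gene (GENCODE release M21, GRCm38). For a hand-chosen set of 18 seed families, the 9 genes held between 2 and 5 families each, where the median over 11325 tested genes with a 3′ UTR was 2. Neither these counts nor the shares of genes with a site given below were adjusted for length. The 3′ UTRs of the 9 genes ranged from 1105 bases (Acvr1) to 4492 (Inhba), against a median of 1395. Only those of Acvr1 and Fstl3 (1155) were below that median. The families with more than 1 site in a single gene were miR-15/16, miR-24 and miR-199a-3p. Mature sequences from RefSeq (GRCm38.p6) are printed for these 3 families, for let-7 and for miR-181, with the seed in capitals.
mmu-let-7a-5p: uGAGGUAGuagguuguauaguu
mmu-miR-16-5p: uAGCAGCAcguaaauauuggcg
mmu-miR-24-3p: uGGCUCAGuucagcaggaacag
mmu-miR-181a-5p: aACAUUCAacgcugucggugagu
mmu-miR-199a-3p: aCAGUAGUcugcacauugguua

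A miR-15/16 site was present in 5 of the 9 genes (Fstl1, Fstl3, Acvr1b, Acvr2a and Acvr2b), and 28.0% of tested genes with a 3′ UTR held one. The 2 sites in Acvr1b overlap each other. In both type II receptor genes a miR-181 site was followed, after 6 bases, by a miR-15/16 site. The stretches are printed because the type II receptor genes share them, with both sites in capitals. That of Acvr2a covers bases 486 to 505 after its stop codon and that of Acvr2b bases 1206 to 1225, each printed with its neighbouring bases.
Acvr2a: cttgTGAATGTgtagtgTGCTGCTgttc
Acvr2b: gcggTGAATGTtcttaaTGCTGCTgttt

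This spacing was noticed after the sites had been listed. It occurred in 2 of 19931 symbols with a 3′ UTR (0.010%), and these were Acvr2a and Acvr2b themselves, while 8.11% of the tested genes with a 3′ UTR held both sites somewhere. A site is a match of letters and no evidence of binding, and any part of these sites in the KO values was not tested.

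Acvr2a also had 3 sites of miR-199a-3p, in capitals in the printed stretches, at bases 365 to 371, 1995 to 2001 and 3303 to 3309 after the stop codon. A site of this family was present in 9.74% of the tested genes with a 3′ UTR, and of the 9 genes only Acvr2a and Fstl1, with 1 site, held it.
Acvr2a at base 365: aattccttaaatgaACTACTGc
Acvr2a at base 1995: tccataagcaaactACTACTGg
Acvr2a at base 3303: gcacaggttgttgtACTACTGt

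A let-7 site was present in 1 of the 9 genes, Acvr1b, while 1362 of the 11325 tested genes with a 3′ UTR held one. It lies at bases 74 to 80 after the stop codon. Acvr1b held 7 sites of 5 families in all. The activin subunit genes shared the families miR-19 and miR-26, with 1 site each in Inhba and in Inhbb.
Acvr1b, let-7 site: agcgtcgtggaggcCTACCTCt

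**Figure D1:**
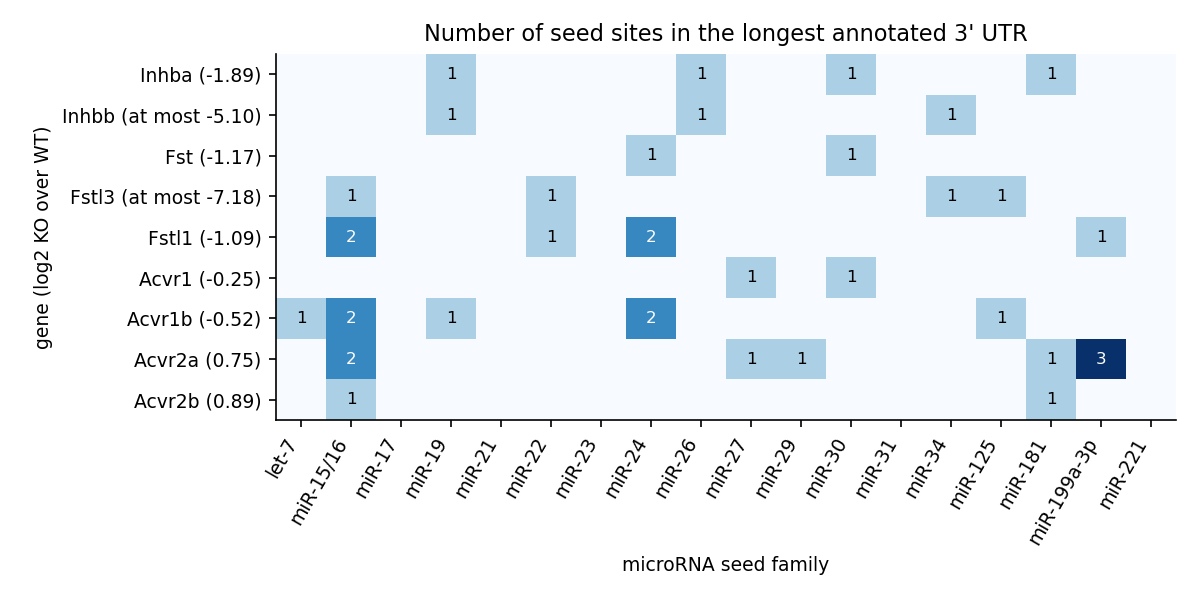
Number of seed sites of 18 microRNA families (columns) in the longest 3′ UTR annotated for each of the 9 genes (lines), with the log2 ratio of KO over WT beside each name; an empty square is 0 sites. The largest number of sites, 3, is that of miR-199a-3p in Acvr2a.

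By genotype means the genes for secreted proteins had the largest differences, though Fst and Fstl1 were only just past 2-fold (ratios of 0.444 and 0.469). The receptor genes Acvr2a and Acvr2b, higher in KO, were not far short of 2-fold, at 1.68 and 1.85. Of the 8 genes with a mean of at least 20 normalised reads over both genotypes, 5 were at least 2-fold lower in KO with a 95% exact (Clopper-Pearson) counting interval of the ratio below 1, 0 were at least 2-fold higher and 3 were neither. By the same size rule 8.56% of all 11710 tested genes were lower and 8.92% were higher, figures that stand as background only, since this ratio was known when the genes were picked. The 5 lower genes were Inhba, Inhbb, Fst, Fstl3 and Fstl1, and the 3 others were the receptor genes Acvr1, Acvr1b and Acvr2a. Acvr2b, whose mean was below that minimum, was not tested. In the authors' deposited table, 2 of the 8 (Fstl1 and Fstl3) were lower and 0 were higher at an adjusted p of 0.1, beside 5.34% lower and 5.56% higher among all tested genes. Intervals cover counting error alone and leave out the spread between libraries. They also treat reads as independent molecules, which reads are not.

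**Figure D2:**
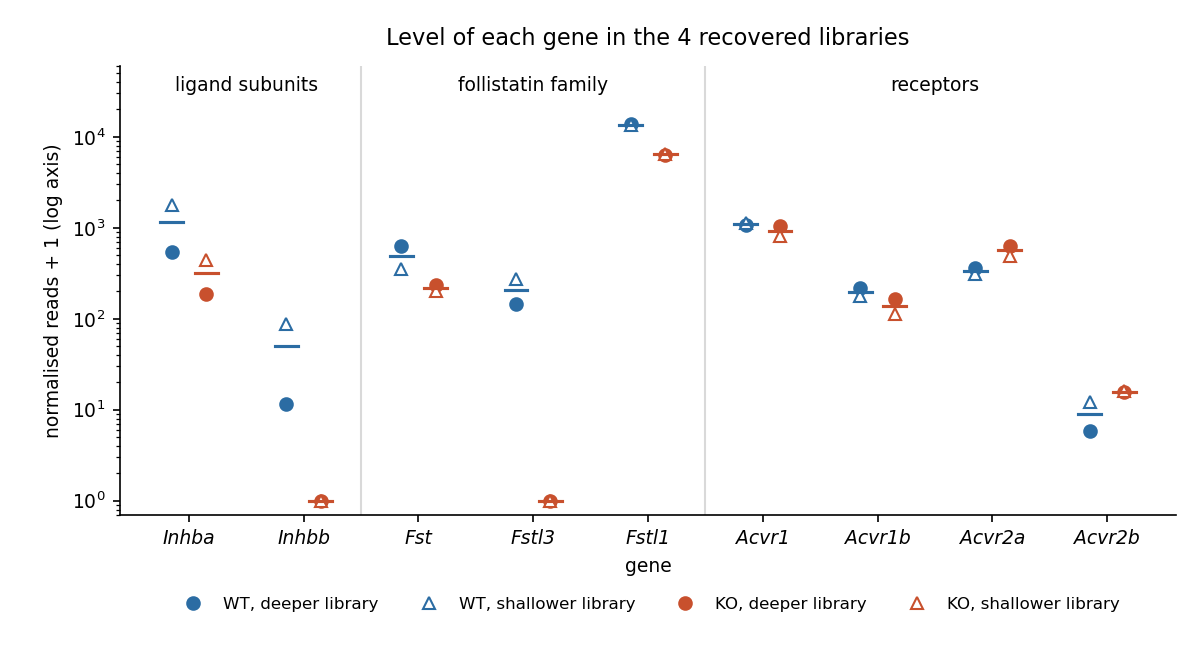
Normalised reads plus 1 (vertical, log axis) of each gene in the 4 recovered libraries; filled circles are the deeper and open triangles the shallower library of WT (blue) and KO (red), and short bars are genotype means. Inhbb and Fstl3 lie at 0 reads in both KO libraries, and the libraries of Inhba lie far apart within each genotype.

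Inhba, which encodes the subunit of activin A, had 544 normalised reads in the deeper and 1795 in the shallower WT library, against 186 and 446 in the KO libraries. Every KO value lay below every WT value, but the deeper WT and the shallower KO library were close to each other (544 and 446). The means were 1169 in WT and 316 in KO, a ratio of 0.270 with a counting interval from 0.253 to 0.302. That ratio rested on the shallower WT library: without it the ratio was 0.581 and the 2-fold rule was no longer met. It was 0.176 without the deeper WT library and 0.159 without the shallower KO library.

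Inhbb, the subunit gene of activin B, had 10.6 and 87.4 normalised reads in the WT libraries (11 and 78 reads) and 0 reads in either KO library. Set against a floor of 3 reads over both KO libraries, which equals 1.43 normalised reads, the bound was 34.2-fold lower in KO. This bound takes the WT mean as exact, and the counting interval of the ratio, from 0 to 0.0390, allows a smaller difference. Most of the WT signal came from the shallower library. Leaving out that library put the gene below the minimum mean, with a bound of 7.39-fold, and leaving out the deeper WT one gave 61.0-fold. With only 1 KO library to carry the floor, the bound was 16.4-fold without the deeper and 17.8-fold without the shallower one.

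Follistatin itself was lower in KO as well. Fst had 628 and 352 normalised reads in the WT libraries and 235 and 200.01 in the KO libraries, so that the genotypes did not overlap. The means were 490 and 217, a ratio of 0.444 with a counting interval from 0.389 to 0.488. Fst lay just inside the 2-fold rule, and without the deeper WT library the ratio was 0.617 and the rule was not met.

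Fstl3, the other activin-binding antagonist of the family, was, with Inhbb, 1 of the 2 genes without a read in KO, and their bounds do not rank them. It had 144 and 271 normalised reads in the WT libraries (149 and 242 reads) and 0 reads in both KO libraries. Against the floor of 3 reads the bound was 145-fold lower in KO, and 100.2-fold lower with the deeper WT library alone. This bound too takes the WT mean as exact, and the counting interval of the ratio, from 0 to 0.00874, allows a smaller difference. With 1 KO library to carry the floor the bound was 69.5-fold (the shallower) or 75.2-fold (the deeper). The 3 tested genes nearest to Fstl3 over the 4 libraries, by Euclidean distance in log2(normalised reads + 1), were Cpxm2 (0.436), Cap2 (0.469) and B3gnt5 (0.475). All 3 had 0 reads in KO, and their WT means were 215, 225 and 184 normalised reads. The nearest to Inhbb by the same distance were Chsy3 (2.01), Hs3st3a1 (2.06) and 5930403L14Rik (2.32), with at most 1 read in any KO library.

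Fstl1, the abundant distant relative, had close libraries in both genotypes. Its WT values were 13829 and 13439 normalised reads and its KO values 6237 and 6542. The means of 13634 and 6390 gave a ratio of 0.469 with a counting interval from 0.458 to 0.478, just inside the 2-fold rule. The ratio stayed between 0.457 and 0.480 when each library was left out in turn. Per kilobase of merged exons, Fstl1 ranked 195 of 11613 tested genes with a known length in WT and 459 in KO.

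Receptor genes differed less, and in both directions. Acvr1, a type I receptor also used by BMPs, had 1067 and 1119 normalised reads in WT and 1039 and 804 in KO, a ratio of 0.843. Its shallower KO library was the lowest of the 4, and the other 3 were close together. Acvr1b, the main type I receptor of activin, had 216 and 176 normalised reads in WT and 163 and 110 in KO, a ratio of 0.697 with a counting interval from 0.596 to 0.815. The deeper KO and the shallower WT library of Acvr1b nearly met.

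The type II receptor genes were higher in KO. Acvr2a had 361 and 309 normalised reads in WT and 635 and 494 in KO, without overlap, and its ratio of 1.68 (counting interval 1.53 to 1.85) lay outside the 2-fold rule. Leaving out each library in turn gave ratios from 1.47 to 1.89. Acvr2b was near the limit of detection, with 5 and 10 reads in the WT libraries and 16 and 15 in the KO libraries. Its ratio of 1.85 had a counting interval from 0.998 to 3.80, and without the shallower WT library it was 3.08. The tested genes with values nearest to Acvr2b, by the same distance, were Fam169b (1.55), Lamb3 (1.56) and Wnt2b (1.56). Their ratios were 1.82, 3.99 and 1.96. The search covered tested genes only, so genes with a mean as low as that of Acvr2b were left out.

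For 7 of the 9 genes each KO value was lower than each WT value, and for Acvr2a and Acvr2b it was higher. Over all tested genes this was so for 28.8% below and 30.4% above. Libraries were matched between genotypes by rank of read total (depth rank), which is not a match of depth. The shallower KO library (14969532 reads) lay between the shallower (14135422) and the deeper WT library (15369250). For 73.7% of tested genes the shallower library deviated from the deeper one in the same direction in WT and KO. Inhba was among the genes in which this gap was largest, with a shallower library 3.30 times the deeper one in WT and 2.40 times in KO. A gap at least as large toward the shallower library was seen in 1.96% of tested genes in WT and 1.27% in KO. Inhbb was 8.25 times as high in the shallower as in the deeper WT library, and 0.102% of tested genes had a gap at least as large. Fst went the other way in both genotypes, with the shallower library at 0.561 of the deeper one in WT and 0.853 in KO. The part of this library difference in the lower KO values of Inhba and Fst was not tested. Each KO library of Inhba and Fst lay below the WT library of the same depth rank. Any pairing would give this, because neither gene overlapped between the genotypes.

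**Figure D3:**
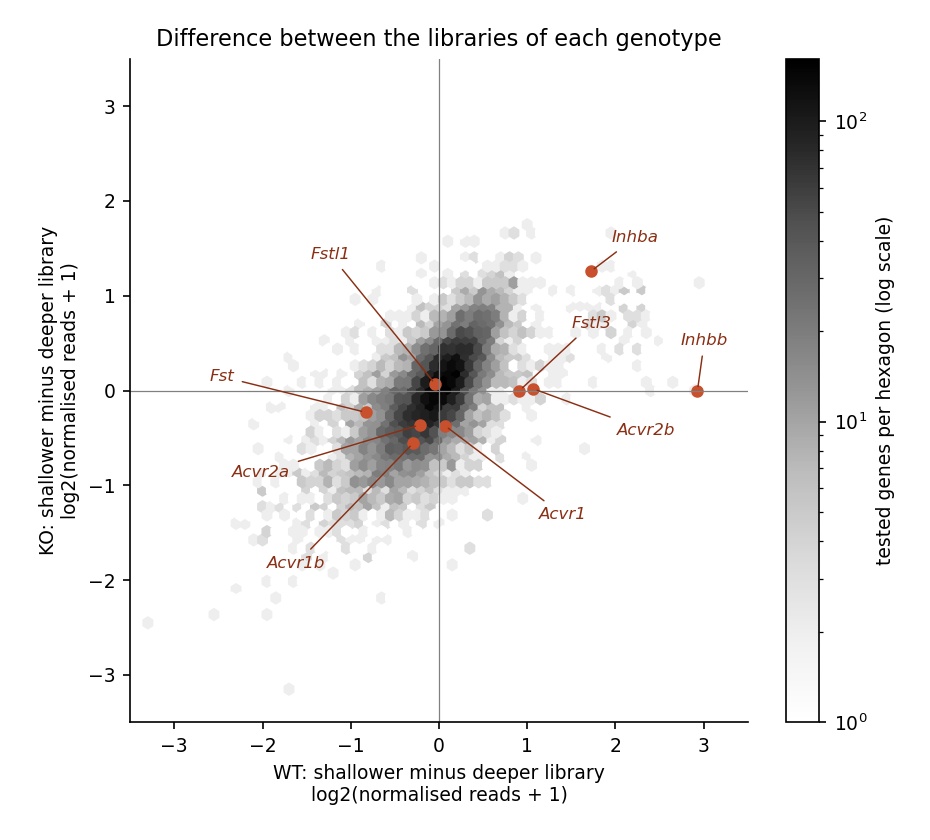
Shallower minus deeper library in log2(normalised reads + 1), in WT (horizontal) and KO (vertical), for all 11710 tested genes (grey hexagons) and the 9 genes (red, 8 of them tested). Inhba lies far into the upper right, where the shallower library is higher in both genotypes, whereas Fstl3 and Inhbb have no KO reads and therefore lie at 0 on the vertical axis.

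Messages were next compared with each other per length, as normalised reads per kilobase of merged exons (GENCODE release M21, GRCm38). Acvr1 was the highest receptor gene in both genotypes, at 226 in WT and 191 in KO. In WT the order of the other means was Inhba (183), Fst (107), Fstl3 (84.9), Acvr2a (58.9), Acvr1b (44.4), Inhbb (11.5) and Acvr2b (2.04), against a median of 114 over tested genes. In this order Acvr1 and Inhba, Inhba and Fst, Fst and Fstl3, and Fstl3 and Acvr2a overlapped in their libraries and cannot be ordered. In KO, Acvr2a (99.2) stood above Inhba (49.4), Fst (47.3) and Acvr1b (30.9) without overlap. Inhba overlapped with both Fst and Acvr1b, while Fst lay above Acvr1b in both libraries. Fstl1, at 2775 in WT and 1300 in KO, was above all of them.

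The ratio of antagonist to ligand messages overlapped between the genotypes, and was high in the deeper and low in the shallower library of each. Fst plus Fstl3 over Inhba plus Inhbb, per length, was 2.23 in the deeper and 0.623 in the shallower WT library, against 1.76 and 0.625 in the KO libraries. Ligand messages summed to 87.6 and 301 normalised reads per kilobase in WT and to 29.1 and 69.8 in KO. The antagonist messages summed to 195 and 188 in WT and to 51.1 and 43.6 in KO, so both sums were lower in every KO library than in any WT library. Type II messages (Acvr2a plus Acvr2b, mostly Acvr2a) over Acvr1b did not overlap between the genotypes, at 1.32 and 1.44 in WT and 3.13 and 3.62 in KO. The summed level of Acvr1, Acvr1b, Acvr2a and Acvr2b did overlap, at 334 and 329 in WT and 367 and 282 in KO. With 2 libraries a genotype, and genes picked with their ratios known, these ratios are given without a test.

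**Figure D4:**
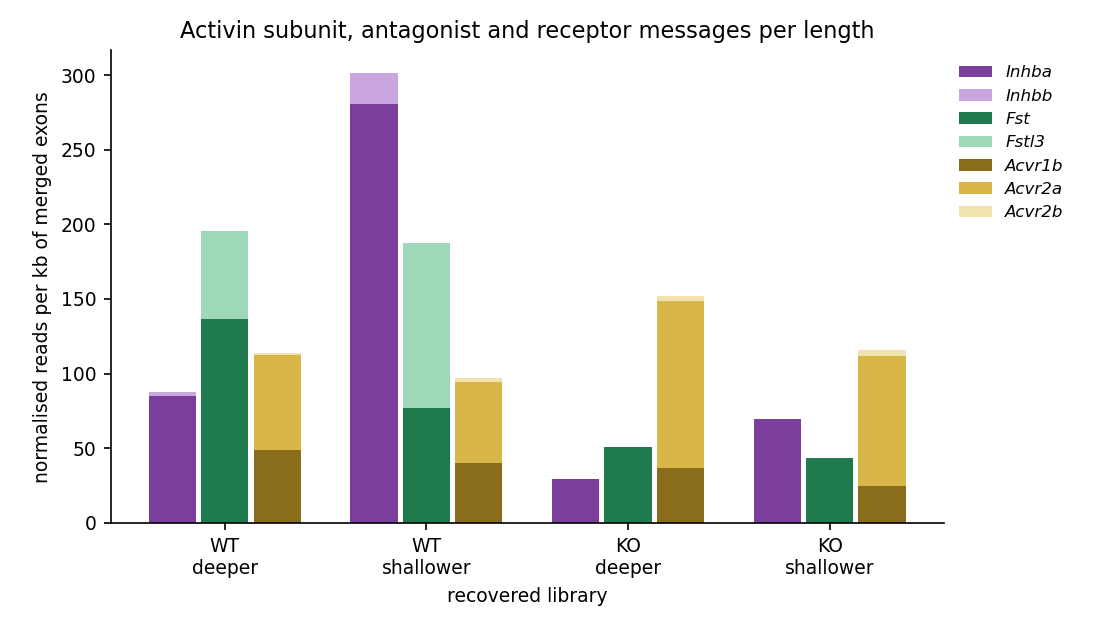
Normalised reads per kilobase of merged exons in each of the 4 recovered libraries, stacked for the activin subunits (purple), the antagonists Fst and Fstl3 (green) and the receptors Acvr1b, Acvr2a and Acvr2b (yellow). The purple stack exceeds the green one in both shallower libraries and is below it in both deeper ones, and light green (Fstl3) and light purple (Inhbb) are missing in KO.

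The promoters of the 2 genes without a read in KO are shown for their sequence, since both messages were detected in WT and in neither KO library. Each stretch is the 250 bases before the annotated start (RefSeq, GRCm38.p6), which is not the authors' build. Capitals mark each CG dinucleotide. Fstl3 lies on the plus strand at chr10:79777024-79777273 and Inhbb on the minus strand at chr1:119422249-119422498.
Fstl3: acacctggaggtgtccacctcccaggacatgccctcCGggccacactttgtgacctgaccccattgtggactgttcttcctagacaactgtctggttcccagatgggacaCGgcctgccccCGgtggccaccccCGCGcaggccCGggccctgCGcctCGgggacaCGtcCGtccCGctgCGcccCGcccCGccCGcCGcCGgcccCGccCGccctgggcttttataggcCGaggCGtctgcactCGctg
Inhbb: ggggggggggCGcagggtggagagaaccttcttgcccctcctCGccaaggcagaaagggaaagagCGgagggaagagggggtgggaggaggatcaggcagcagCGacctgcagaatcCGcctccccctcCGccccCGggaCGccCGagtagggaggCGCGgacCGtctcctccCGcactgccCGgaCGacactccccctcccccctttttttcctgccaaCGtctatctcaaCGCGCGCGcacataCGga

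The Fstl3 stretch holds 22 CG dinucleotides and the Inhbb stretch 21, against a median of 6 and an upper quartile of 16 over 32851 promoters. Of these promoters 92.1% hold at least 1, 85.2% hold fewer than Fstl3 and 83.7% hold fewer than Inhbb. Among the 8 members with a promoter sequence, Inhba had 3 and Fstl1 had 16, and the 4 receptor genes had between 24 (Acvr2b) and 49 (Acvr2a). The short element CAGAC, which SMAD proteins can bind, was searched on both strands, as CAGAC or GTCTG. It was found at 2 places in Fstl3, at 1 each in Acvr2a and Acvr2b and at 0 in the other 5, and 42.2% of promoters held it. The RNA values say nothing on whether these promoters were bound or methylated.

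Other genes of the pathway were taken from 5 lists of 61 genes, chosen with earlier results of these data known. Of 33 tested genes in these lists, 3 were higher by the size rule, 4 were lower and 26 did not pass it, beside 8.92% higher and 8.56% lower over all tested genes. At its adjusted p, the authors' deposited table had 2 higher and 3 lower, beside 5.56% and 5.34%. These counts are near the background shares. The median log2 ratio of the 33 was 0.03, where that of all tested genes was -0.01.

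Among 13 other receptors and co-receptors, 7 were tested, of which 1 was higher, 1 lower and 5 neither (median log2 ratio 0.53). Tgfbr3 (betaglycan), a co-receptor that binds inhibin and TGF-beta, rose 4.28-fold, from 2327 and 955 normalised reads in WT to 9002 and 5043 in KO (the authors' deposited table gives adjusted p = 0.0742). The ratio was 7.35 without the deeper WT library. Bambi, a pseudoreceptor without a kinase domain that dampens this signalling, fell from 113 and 89.7 to 23.9 and 11.9, a ratio of 0.177 (the authors' deposited table gives adjusted p = 0.00143), or 0.118 without the deeper KO library. Acvr1c, the other type I receptor of this branch, had 1 read in all 4 libraries together.

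Of 18 other follistatin-domain proteins and extracellular antagonists, 8 were tested, with 2 higher, 1 lower and 5 neither (median -0.10). Htra1, a secreted protease with a follistatin-like region, rose from 582 and 302 normalised reads to 2429 and 3347, a ratio of 6.54 (the authors' deposited table gives adjusted p = 2.44e-07). Smoc2, a matricellular protein, fell from 1203 and 1500.03 to 697 and 504 (the authors' deposited table gives adjusted p = 0.0284), and its ratio of 0.444 was 0.516, outside the 2-fold rule, without the shallower KO library. Of the 7 pathway genes past the size rule, limma without a block for depth rank called only Bambi and Htra1. With that block it called all of them but Smoc2. Sparcl1, higher by size with a ratio of 4.30, had overlapping libraries (28.0 and 2.24 in WT, 117 and 12.9 in KO), is given adjusted p = 0.935 by the authors' deposited table, and had a ratio of 0.857 without the deeper KO library. That ratio was 28.9 when the deeper WT library was left out, 2.32 when the shallower WT one was and 7.74 when the shallower KO one was.

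The SMAD2/3 arm inside the cell had 14 of 15 genes tested, 0 higher, 2 lower and 12 neither (median 0.04). Smad2, Smad3 and Smad4, the signal carriers, had log2 ratios of 0.48, -0.37 and 0.12, none past the rule. They were chosen for their role with the values already known. Drap1, a transcriptional repressor known to restrain nodal signalling, fell from 2415 and 2777 normalised reads to 892 and 1253 (the authors' deposited table gives adjusted p = 0.00808). Smad6, an inhibitory SMAD, had 1895 and 672 in WT and 604 and 362 in KO, is given adjusted p = 0.690 by the authors' deposited table, and its ratio of 0.377 was 0.720 without the deeper WT library. Of 8 other activin-class ligands, 1 was tested and it was neither (Gdf11, ratio 0.646), while Mstn, Nodal and Gdf1 had no reads. All 3 tested genes of precursor processing and receptor trafficking were neither, with ratios from 0.762 to 1.27.

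**Figure D5:**
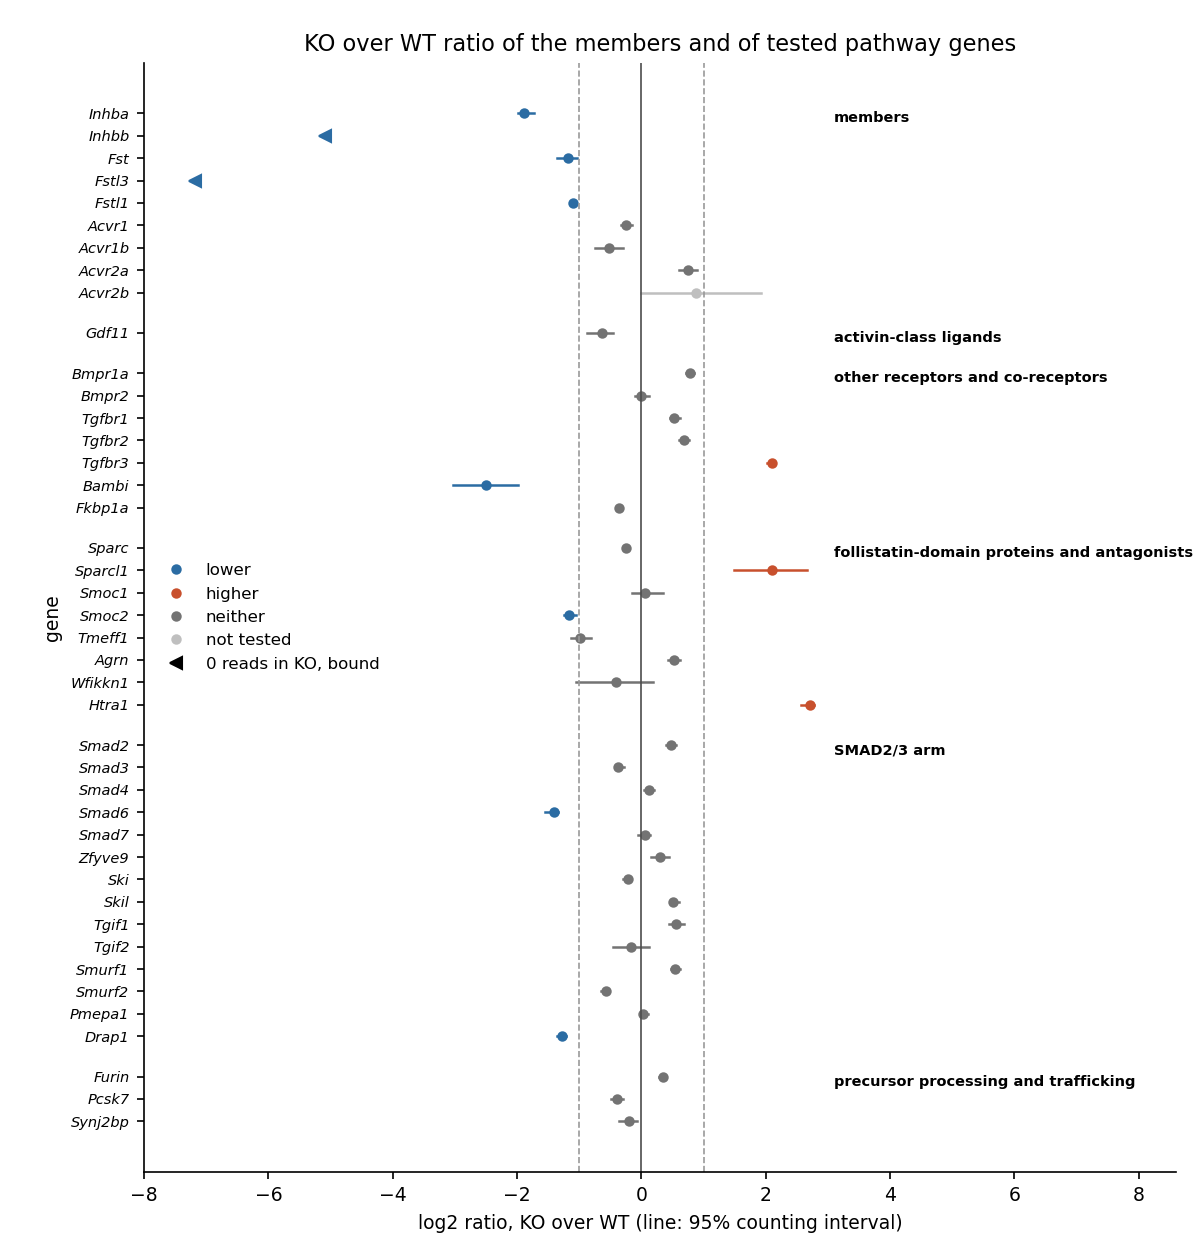
Log2 ratio of KO over WT (horizontal) of the 9 members and of the tested pathway genes by list, with 95% counting intervals as lines and dashed lines at a 2-fold difference; triangles are bounds for genes with 0 KO reads. The 5 blue members are the subunit and follistatin family genes, while most receptors and SMAD genes lie between the dashed lines.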

How the data were processed

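PolyA-selected RNA of 1 labelled sample per genotype was sequenced in 50-base read pairs, per the labels' protocols. Per the submitters' processing notes the tools included TopHat 1.4.0 and DESeq 1.10.1, and the build was mm9; roles and order are unstated. For the read counter, annotation and strand setting, nothing is given in the sources used here, so reads of antisense or overlapping genes cannot be separated. The authors deposited 1 signal value per gene and condition, a mean of read counts scaled by DESeq size factors. Condition A was taken to be WT, and B to be KO, because the table's title names them in that order; every direction rests on this. The deposited ratio (fold) is B over A and the deposited log2 value its logarithm, per the file headers. P-values and their adjusted values are the authors' own and were used as deposited.

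Whole reads were recovered from the means: 1 pair of whole numbers gave the deposited mean in 100% of the 16386 genes above 0 in WT and the 16350 in KO. Tested genes had a mean of at least 20 normalised reads. No p-value is given for a single member, since the members, like the lists and seed families, were chosen with earlier results of these data known. The genes named are the members, Dicer1, the list genes past the size rule (up to 4 a list) and the nearest genes of the members with the lowest ratio (Fstl3 and Inhbb, both 0) and the highest. Smad2, Smad3, Smad4, Smad7, Acvr1c, Gdf11, Mstn, Nodal and Gdf1 fall outside this rule and were named with their values known. limma 3.58.1 on log2(normalised reads + 1) of the 4 libraries, other scalings, filters and folds, and leaving out each library were alternatives. One scaling was a trimmed mean of log ratios, computed in Python 3.11.15 in place of the planned package's factors, since the deposited values are means. Recovery, calls and limma were tested on simulated data. Merged exon lengths were matched for 22773 of 23227 symbols, through symbols and older symbols. Promoters were matched for 8 of 9 members, by current symbol alone. The promoter of Fst was not used.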

Additional observations from a re-analysis of the deposited data

How the results depend on the processing

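The count of 5 members past the 2-fold size rule was 2 by the authors' deposited adjusted p, Fstl1 and Fstl3. By limma on the 4 libraries (adjusted p of 0.05, no block) it was the same 2, and 5 members had an unadjusted limma p under 0.05. Every count of members by a p-value here is a description, since the members were picked with this ratio known. limma also took the 2 libraries of a genotype as replicates, although the labels give 1 sample for each genotype. By the size rule, the count ranged from 3 to 5 with a library left out. Leaving out the shallower WT library lost Inhba and Inhbb, and leaving out the deeper one lost Fst. Over all tested genes, 2046 were past the rule, 4121 with a fold of 1.5, 1276 by the authors' adjusted p, and 843 by limma, where 3162 had an unadjusted p under 0.05. Of pathway genes, 7 were past the rule, 13 without a filter on low values, 11 with a fold of 1.5 and 2 by limma, alternatives for these genes chosen after seeing the data. No paired analysis was possible from the labels because they carry no replicate numbers. With a block for depth rank (a pairing inferred from read totals, not labels), limma called 6 members (the 5 and Acvr2a, higher), 2621 genes and 7 pathway genes, of which 4 were higher and 3 lower: Smoc2 was lost and Bmpr1a gained. The direction of the log2 ratio of all 9 members was kept in 63 of 63 values over 7 alternatives. These were 4 left-out libraries, 2 scalings and a difference of mean log2 values. Leaving out a library or averaging log2 values could not have reversed a direction, because no member's genotypes overlapped in their libraries. Only the 2 scalings could have done so. The depth limits Acvr2b, and the 0 reads of Inhbb and Fstl3 in KO allow up to 3 reads over both libraries.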
